A study of Mus musculus with 8 samples.

Results

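The infundibulum is the funnel-shaped upper end of the hair follicle, where its wall joins the interfollicular epidermis and lines the opening of the hair canal. Keratinocytes carrying its transcripts were taken from single-cell RNA-seq of mouse dorsal skin by a marker rule. A member had a UMI (a counted transcript molecule) of at least 3 of the 5 genes Krt79, Defb6, Cst6, Klk7 and Sprr1a, with Krt79 or Defb6 among them. It had no UMI of the leukocyte gene Ptprc and UMIs of fewer than 3 of the 5 inner root sheath genes Krt25, Krt27, Krt28, Krt71 and Krt73. The rule gave 416 cells of the 11118 that passed the filter (between 500 and 4000 genes detected, no more than 20000 UMIs and mitochondrial UMIs of 10% or less), out of 26231 barcodes deposited. The name rests on the 5 markers alone, and the cells are called infundibulum-like.

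The samples were 8 libraries of dorsal skin from female BALB/c mice aged 14 to 16 weeks, 4 injected subcutaneously with PBMCsec and 4 with vehicle. PBMCsec is the secretome of irradiated human peripheral blood mononuclear cells, that is, the medium holding what these cells released after irradiation. The labels name no engineered allele, and they leave the composition of the vehicle, the dose and the time of sampling unstated. By the methods of the study, mouse tissue was scar formed after full-thickness wounding, while the labels give dorsal skin and no wound, so whether these libraries came from scar is not settled here. Those methods also describe injected mice of each group taken at the end of treatment and others taken later. The labels do not say whether the libraries of a group mix such times. Biopsies were of 4 mm, and by the same methods the cells were sorted for viability and not for a cell type. For mice treated on the skin surface, those methods divided 4 mm biopsies between histology and sequencing. The sequencing parts of each treatment group were pooled. Whether the biopsies of these libraries were divided or pooled is not settled here. A library was taken as 1 sample although the labels do not say that each came from its own mouse, so p-values measure the spread between these libraries. Total counts per library ranged from 14753926 to 37880651 UMIs. PBMCsec libraries 1 to 4 held 46, 11, 120 and 67 infundibulum-like cells, and vehicle libraries 1 to 4 held 13, 13, 86 and 60. Over the 28 pairs of libraries, 17 barcodes of passing cells were shared, and no pair shared a barcode between members of both.

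Keratinocytes of the infundibulum differentiate and are shed into the hair canal, much as those of the epidermis are shed at the skin surface. Their last steps are the building of a crosslinked protein envelope and a lipid layer, and then the cutting of corneodesmosomes by kallikrein proteases, which Spink5 restrains. The canal is open to microbes, and its wall is known for antimicrobial peptides. Krt79 is a type II keratin of the follicle canal, Defb6 a beta-defensin, Cst6 the cystatin M/E that inhibits cysteine proteases, Klk7 a kallikrein that cuts corneodesmosomes, and Sprr1a a small proline-rich protein of the cornified envelope.

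The promoters of 3 of the rule genes are shown because they carry the names of the population or the letters searched. They are the 250 bases before the RefSeq start in GRCm38.p6, written 5′ to 3′ on the strand of the gene, and 4 of the 5 rule genes had an entry. Capitals mark 3 motifs searched on both strands. The TATA box was searched as TATAA, which reads TTATA from the other strand. The motif of AP-1 factors was searched as TGANTCA, and that of GATA factors was searched as AGATAA. Overlapping matches run together. Krt79 lies at chr15:101929332-101940324 on the minus strand, Defb6 at chr8:19225478-19228209 on the plus strand and Sprr1a at chr3:92483952-92485895 on the minus strand. Cst6 lies at chr19:5344705-5349574 on the minus strand and Klk7 at chr7:43811294-43816359 on the plus strand.
Krt79, chr15:101940325-101940574: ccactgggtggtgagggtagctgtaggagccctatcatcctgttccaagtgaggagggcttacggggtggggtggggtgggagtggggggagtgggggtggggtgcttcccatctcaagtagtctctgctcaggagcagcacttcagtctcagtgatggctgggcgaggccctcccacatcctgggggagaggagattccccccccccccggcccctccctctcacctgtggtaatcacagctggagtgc
Defb6, chr8:19225228-19225477: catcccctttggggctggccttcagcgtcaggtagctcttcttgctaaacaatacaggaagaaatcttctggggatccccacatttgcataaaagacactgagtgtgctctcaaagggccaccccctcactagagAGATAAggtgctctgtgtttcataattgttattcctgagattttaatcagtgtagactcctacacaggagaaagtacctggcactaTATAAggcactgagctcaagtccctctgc
Sprr1a, chr3:92485882-92486131: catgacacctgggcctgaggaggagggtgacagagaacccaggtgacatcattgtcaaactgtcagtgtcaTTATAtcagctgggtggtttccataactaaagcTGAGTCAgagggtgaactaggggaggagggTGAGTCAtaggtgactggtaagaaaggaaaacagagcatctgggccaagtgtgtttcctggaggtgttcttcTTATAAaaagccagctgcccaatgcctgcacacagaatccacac
The Sprr1a window held TGAGTCA at 146 and at 116 bases before the start (AP-1). It held the TATA box letters at 43 bases on the strand of the gene and at 44 and 179 bases on the other strand. The Defb6 window held the TATA box letters at 29 bases and the GATA letters at 115 bases before the start. None of the letters searched was in the windows of Krt79 and Klk7. Of 32851 promoters of the same length, 22.8% held the TATA box letters, 6.75% the AP-1 letters and 9.99% the GATA letters, so these matches are a description of the windows.

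The levels of the rule genes chose the cells and are given as a description, in CPM, the UMIs of a gene in the summed members of a library scaled to a common library total. In PBMCsec libraries 1 to 4, Krt79 was at 5564, 6544, 7200 and 8222 CPM, and in vehicle libraries 1 to 4 at 8504, 5501, 5584 and 7137 CPM. Krt79 thus had the smallest ratio of the highest to the lowest library among the 5 genes, and the treatment groups overlapped. Defb6 was at 5579, 9885, 5653 and 6433 CPM with PBMCsec and at 10027, 3793, 4424 and 4289 CPM with vehicle, with vehicle library 1 far above the other vehicle libraries. Cst6 was at 37181, 12031, 19061 and 23109 CPM with PBMCsec and at 35144, 16621, 16498 and 22549 CPM with vehicle, and the number 1 library was the highest of each group. Klk7 ranged from 276 to 1036 CPM and Sprr1a from 476 to 4381 CPM, both highest in PBMCsec library 1.

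**Figure D1:**
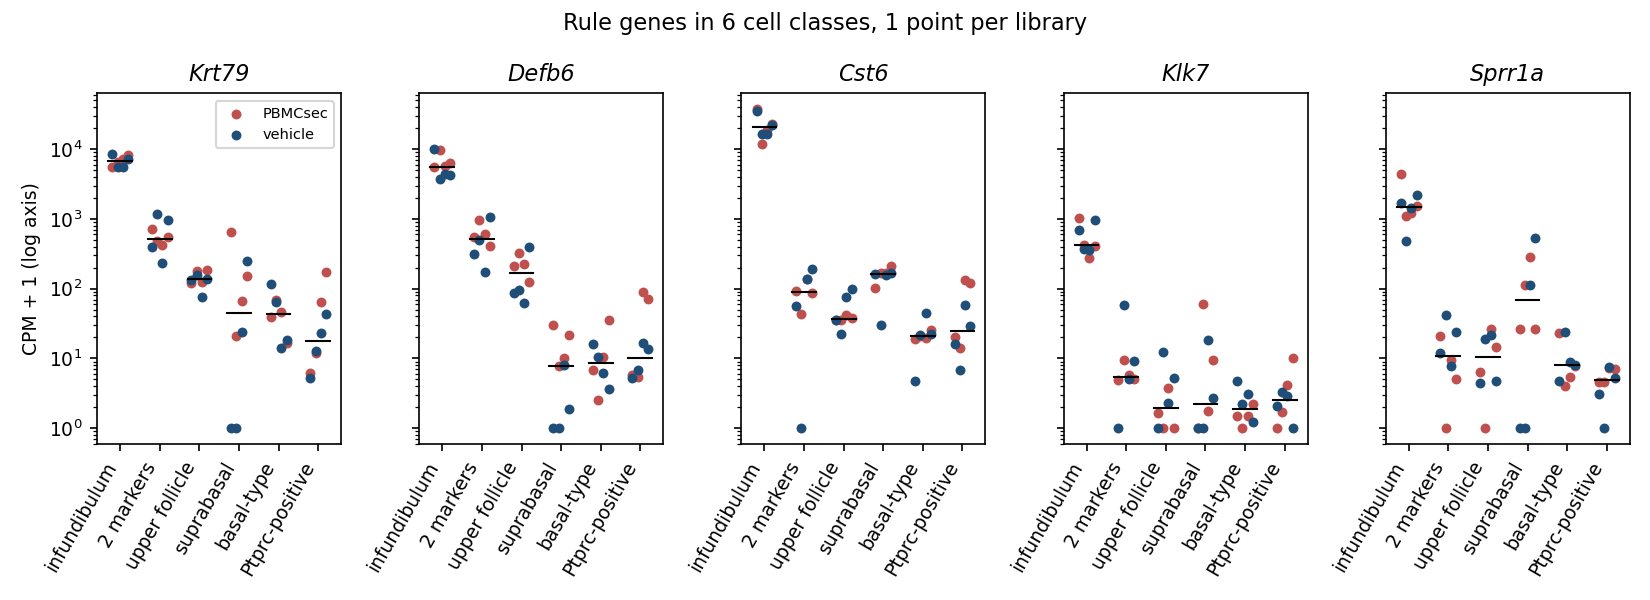
Levels of the 5 rule genes (CPM + 1, log axis) in infundibulum-like cells and 5 other cell classes, 1 point per library, red for PBMCsec and blue for vehicle, with a black line at the median of the 8 libraries. Krt79 lies between 5501 and 8504 CPM in every infundibulum-like sample and at a median of 135 CPM in upper follicle-type cells.

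Krt79 had a UMI in 97.6% of the infundibulum-like cells, Defb6 in 91.1%, Cst6 in 94.95%, Sprr1a in 56.0% and Klk7 in 36.3%. Ptprc-positive cells, which should lack these genes, had a UMI of Krt79 in 4.603%, of Defb6 in 4.06% and of Cst6 in 12.03%, at a median of 3911 UMIs per cell against 9542.5 in the infundibulum-like cells. With every cell thinned to 3000 UMIs, the share for Krt79 was 89.7% against 3.10%. The infundibulum-like cells were chosen by these genes at full depth, so the rule sets these contrasts and they are a description. The shares in Ptprc-positive cells serve as the background, in which free RNA and doublets cannot be told apart. In basal-type cells a UMI of Klk7 was found in 1.02% and of Sprr1a in 3.27%, against 0.775% and 2.01% in Ptprc-positive cells. The basal-type, suprabasal and upper follicle-type cells used for comparison numbered 2444, 446 and 1347. They were set by Krt5 and Krt14 with integrins and Col17a1, by Krt1 and Krt10 with Krtdap, Sbsn and Dmkn, and by Sostdc1 or Fst with Aldh3a1, Krt17 and Aqp3. The basal-type class is not epidermis alone by its genes, as the follicle gene Lgr5 was in 46.1% of its cells, Lhx2 in 55.0% and Krt17 in 80.9%.

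The cells just inside and just outside the rule are described by their UMIs of the rule genes, which the rule itself in part sets. There were 194 members with 3 markers, 128 with 4 and 94 with all 5, with medians of 34, 157 and 681.5 UMIs of the 5 genes together. Just outside, 410 cells had 2 markers and a median of 3 such UMIs. Of the members with 3 markers, 45 had under 10 UMIs of the rule genes, as had 320 of the cells just outside. Cells on either side of the rule thus overlapped in these counts. At 2 markers, Krt79 was at a median of 514 CPM over the libraries, Defb6 at 524 CPM and Cst6 at 89.9 CPM.

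**Figure D2:**
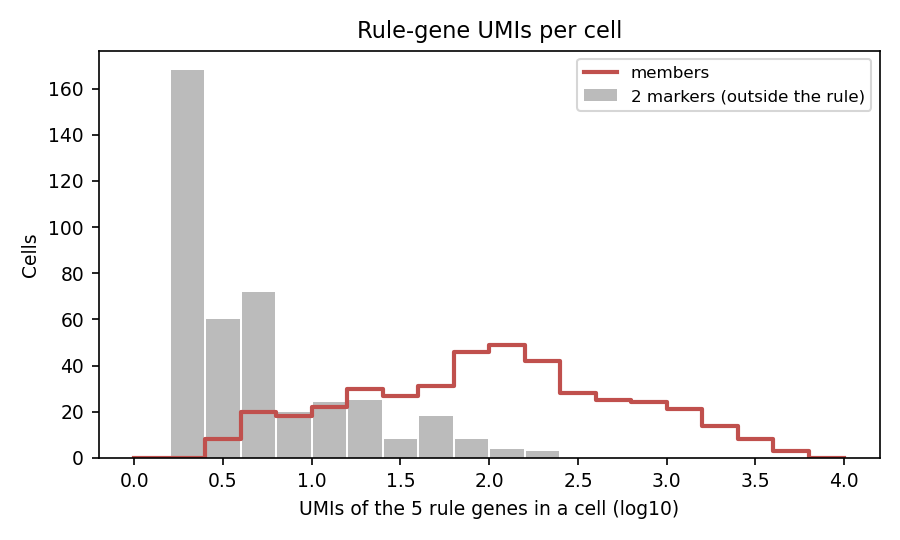
Number of cells (vertical axis) by the UMIs of the 5 rule genes in a cell (log10, horizontal axis), as a red line for the 416 infundibulum-like cells and as grey bars for the 410 cells with 2 markers. The grey cells pile up at the left, and both overlap near 1 on the log10 scale.

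Members with 3 markers and members with 4 or 5 differed in genes the rule did not read, compared here as a description over the 6 libraries with enough cells of both. Krt17, a keratin of the follicle, was at a median of 2995 CPM (1766 to 5906) at 3 markers and of 11892 CPM (10557 to 15596) at 4 or 5, with no overlap of the libraries. Krt15, which marks basal cells of the follicle, was at 3779 CPM (2094 to 4653) at 3 markers and at 1489 CPM (620 to 2069) at 4 or 5. Fst, an activin antagonist, was at 335 CPM against 105 CPM, and Col17a1, a hemidesmosome collagen, was at 348 CPM against 95.6 CPM. Spink5, Klk5 and Teddm3 went the other way. Spink5 was at 45.5 CPM at 3 markers and at 547 CPM at 4 or 5, Klk5 at 9.96 CPM and 143 CPM, and Teddm3 at 13.9 CPM and 201 CPM. Gata6, a transcription factor of the upper follicle, differed less, with 105 CPM (78.4 to 132) against 163 CPM (124 to 207).

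Most members held both leading markers. A UMI of Krt79 and of Defb6 was found in 369 cells, of Krt79 alone in 37 and of Defb6 alone in 10. Vehicle libraries 3 and 4 held 16 and 11 of the 37 cells with Krt79 alone, and every other library held at most 3. These 37 cells carried 65.5% of the Flg UMIs, 93.4% of the Flg2 UMIs and 81.7% of the Lor UMIs of all members, and these genes encode filaggrins and loricrin of the epidermal granular layer. Few cells carried these UMIs. Flg was in 18 of the 416 cells, and 5 cells held 95.04% of its UMIs. Lor was in 31 cells with 96.3% of its UMIs in 5, and Flg2 in 9 cells with 98.7% in 5. Of the 37 cells with Krt79 alone, 5 had Flg, 5 had Lor and 2 had Flg2. Cells with both leading markers held 96.1% of the Krt15 UMIs. Within vehicle library 3, Krt10, the suprabasal keratin, was at 5111 CPM in the 16 cells with Krt79 alone and at 995 CPM in the 69 cells with both, and within vehicle library 4 at 7682 CPM in 11 cells and 2215 CPM in 48. Gata6 was at 38.2 CPM against 157 CPM in vehicle library 3 and at 19.7 CPM against 132 CPM in vehicle library 4, and Alox12e at 38.2 CPM against 1247 CPM and at 59.1 CPM against 928 CPM. Krt17 was at 8946 CPM against 8049 CPM and at 10624 CPM against 8093 CPM. In both libraries, then, cells with Krt79 alone had more Krt10 and less Gata6 and Alox12e than cells with both. The rule in part sets this contrast, since a cell with Krt79 alone needed more of Cst6, Klk7 and Sprr1a to enter. Klk7 had a UMI in 64.9% of cells with Krt79 alone and in 33.3% with both, and Sprr1a in 73.0% and 53.1%. The part of this in the other genes was not tested. Gata6 had 9 UMIs in all 37 cells with Krt79 alone. The other libraries held too few cells with Krt79 alone, and every library too few with Defb6 alone, for CPM values of their own. Of the 10 cells with Defb6 alone, 5 had a UMI of Krt10 and 3 had 10 or more, so Krt10 was not found in cells of Krt79 alone only.

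The infundibulum-like cells were set beside 3 other keratinocyte classes of the same libraries. For each class, the UMIs of a library were added up and fitted with edgeR, the library being a block. The cells were chosen by transcripts of the same cells and the classes exclude each other, so the counts of genes past an adjusted p of 0.05 (Benjamini-Hochberg) state a size against the spread between libraries, and no test is read from them. The genes that set the classes were left out. A gene that is low elsewhere enters a fit through the infundibulum-like cells, so the counts of list genes that passed as higher are in part fixed by the filter on low counts and are given as a description. Against basal-type cells, 34.4% of 9134 genes passed, 1526 of them higher and 1617 lower. The share was 33.1% of 8879 genes against upper follicle-type cells (1420 higher and 1521 lower) and 29.6% of 7971 genes against suprabasal cells (1141 higher and 1215 lower). The last fit held 6 libraries, since vehicle libraries 1 and 2 had under 10 suprabasal cells, and the other fits held 8. The 3 comparisons share the infundibulum-like samples, and their values are therefore given side by side. The median log2 difference of all genes was -0.010, -0.026 and -0.00069 against basal-type, upper follicle-type and suprabasal cells. Values below are log2 differences ± the standard error.

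Genes of desquamation were high in infundibulum-like cells. Of 10 kallikreins listed, 5 beside Klk7 passed the filter on low counts, and 4, 5 and 4 of them passed as higher against basal-type, upper follicle-type and suprabasal cells, with list medians of 3.73, 4.38 and 2.98. The first 2 of these medians are the values of Klk10, of which 5 cells held 73.8% of the UMIs. Klk5, which activates other kallikreins, ranged from 16.4 to 144 CPM with a median of 81.0 CPM over the 8 libraries. It was higher by 6.47 ± 0.30 than in basal-type cells, by 4.54 ± 0.24 than in upper follicle-type cells and by 2.98 ± 0.27 than in suprabasal cells. Klk11 was the exception, at 3.07 ± 0.37 against upper follicle-type cells, 0.90 ± 0.36 against basal-type cells (not past the threshold) and -1.17 ± 0.23 against suprabasal cells. Klk6 was found in 50 infundibulum-like cells and in 3 basal-type, 4 upper follicle-type and 1 suprabasal cell.

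Protease inhibitors and the targets of kallikreins were also present. Spink5, the inhibitor of the kallikreins, ranged from 143 to 463 CPM and was higher by 5.94 ± 0.57, 4.32 ± 0.32 and 2.05 ± 0.20 than in basal-type, upper follicle-type and suprabasal cells. Cstb, a cystatin that blocks cathepsins, was in 99.5% of the cells and higher by 3.09 ± 0.17, 2.30 ± 0.17 and 2.21 ± 0.13. Of 13 protease inhibitors tested of 21 listed, 8 passed as higher and 2 as lower against basal-type cells, and 4 as higher and 6 as lower against suprabasal cells. Serpinb2, an inhibitor of plasminogen activators, was among the lower ones, at -2.74 ± 0.49 and -3.28 ± 0.37. Cdsn, the corneodesmosin that kallikreins cut, was in 34 infundibulum-like cells, and 5 cells held 51.7% of its UMIs. It was found in 7 basal-type, 2 suprabasal and 1 upper follicle-type cell. Dsc1, a desmosomal cadherin of differentiated layers, was in 123 cells and higher by 7.18 ± 0.34, 5.76 ± 0.24 and 1.68 ± 0.31.

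Of 33 genes of the cornified envelope and its crosslinking, 15 were tested against basal-type cells, and 14 passed as higher and 1, Tgm3, as lower. Against suprabasal cells 8 of 15 passed as higher and 1 as lower, and the median was 1.99, against 4.87 with basal-type cells, where the median gene was Lor, with 96.3% of its UMIs in 5 cells. Ivl, the involucrin of the envelope scaffold, was in 140 cells and higher by 4.94 ± 0.21, 3.95 ± 0.25 and 2.31 ± 0.24 than in basal-type, upper follicle-type and suprabasal cells. Tgm3, a transglutaminase, was at -2.66 ± 0.47 and -3.26 ± 0.44 against basal-type and suprabasal cells. Crct1 ran from 0 to 1670 CPM between libraries, and 5 cells held 79.3% of its UMIs. Flg ran from 0 in PBMCsec library 2 and vehicle library 2 to 1958 CPM in vehicle library 3 and 900 CPM in vehicle library 4, the libraries with most cells of Krt79 alone. The Sprr2 genes are near copies of each other, so their counts are uncertain, and Sprr2a3 was the 1 member tested.

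Genes of barrier lipids were high as a list against basal-type and upper follicle-type cells but not against suprabasal cells. Of 14 tested of 20 listed, 12 passed as higher against basal-type cells and 13 against upper follicle-type cells, and none as lower. Against suprabasal cells 2 of 15 passed as higher and 5 as lower. Elovl4, which makes very long-chain fatty acids, was higher by 5.22 ± 0.45 than in basal-type cells and by 4.87 ± 0.21 than in upper follicle-type cells, and at -0.80 ± 0.17 against suprabasal cells. Acer1, an alkaline ceramidase, was at 5.63 ± 0.27, 5.69 ± 0.28 and -1.21 ± 0.16. Alox12e, an epidermal lipoxygenase, departed from them and was higher in all 3, by 7.06 ± 0.31, 2.40 ± 0.16 and 3.70 ± 0.29. Alox12e was in 79.6% of the infundibulum-like cells and ranged from 711 to 1342 CPM over the 8 libraries. Degs2, an enzyme of phytoceramide synthesis, was in 47 infundibulum-like cells and in 1 basal-type and 1 upper follicle-type cell.

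**Figure D3:**
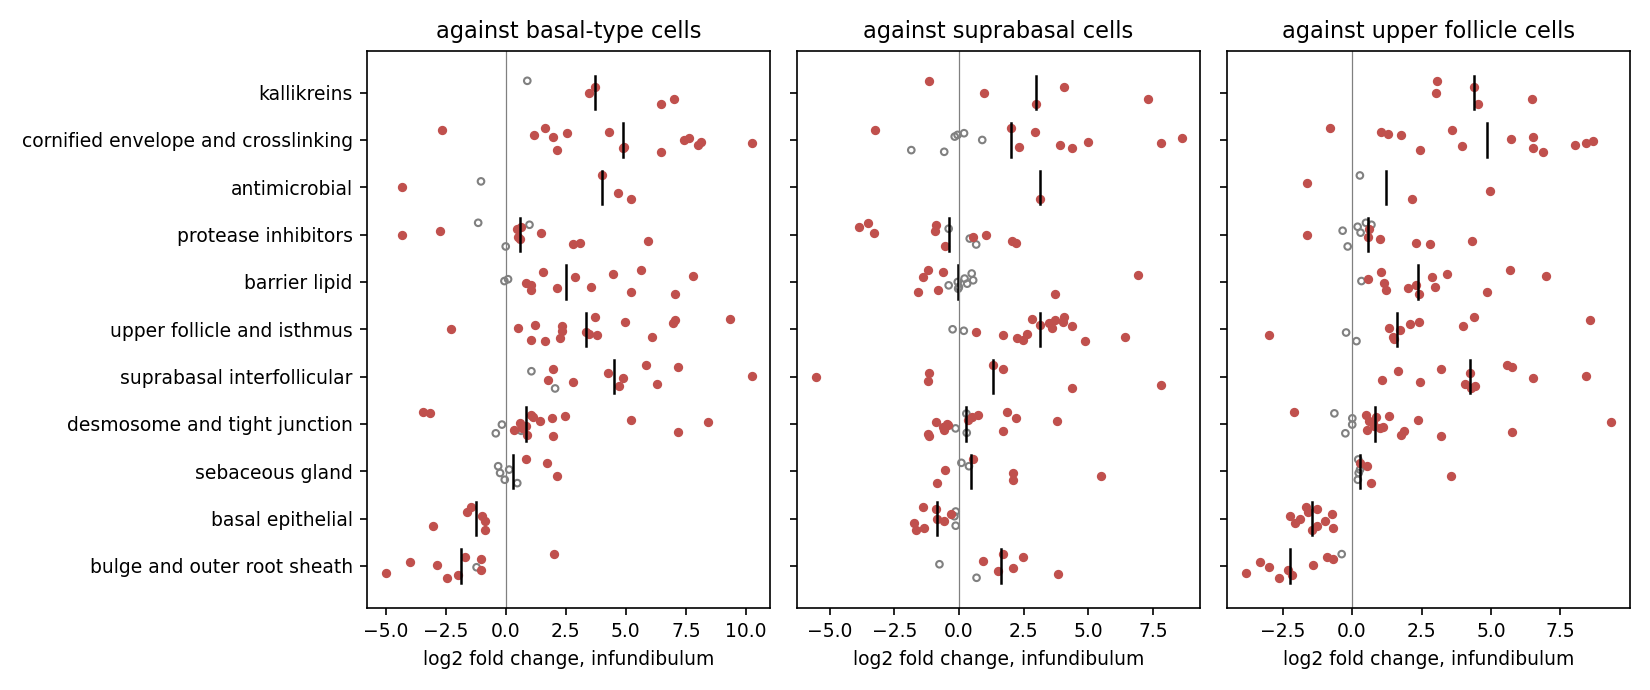
Log2 difference of infundibulum-like cells from basal-type, suprabasal and upper follicle-type cells (horizontal axes) for the tested genes of 11 lists (rows), 1 point per gene, filled red where adjusted p was under 0.05 and open grey otherwise, with a black line at the list median. Barrier lipid genes lie to the right of 0 against upper follicle-type cells and, but for 1 of 14, against basal-type cells. They lie on both sides of 0 against suprabasal cells.

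Genes listed for the upper follicle were high against basal-type and suprabasal cells. The list was drawn up with earlier results of these cells known and holds genes such as Teddm3, found in 3 of the 1347 upper follicle-type cells, so its counts are no independent evidence. Of 17 listed, 16 passed as higher and 1 as lower against basal-type cells, and 15 of 17 as higher against suprabasal cells. The medians were 3.32 and 3.14. Against upper follicle-type cells 9 of 12 tested passed as higher, 1 as lower, with a median of 1.63. Gata6 was at 141, 156, 170 and 117 CPM in PBMCsec libraries 1 to 4 and at 177, 156, 129 and 107 CPM in vehicle libraries 1 to 4, so the groups overlapped. It was higher by 6.09 ± 0.26 than in basal-type cells, by 6.42 ± 0.31 than in suprabasal cells and by 1.47 ± 0.10 than in upper follicle-type cells. Krt17 ranged from 4634 to 11294 CPM and was higher by 1.64 ± 0.17 than in basal-type cells and by 4.88 ± 0.18 than in suprabasal cells. Lrig1 and Sox9, which mark stem cells of the upper follicle and of the follicle at large, were at 0.16 ± 0.14 and -0.21 ± 0.09 against upper follicle-type cells, with neither past the threshold. Postn, a matricellular protein, was lower, at -2.27 ± 0.40 and -2.98 ± 0.33 against basal-type and upper follicle-type cells.

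Suprabasal genes were high against upper follicle-type and basal-type cells. Against upper follicle-type cells, 12 of 12 tested of the 13 listed passed as higher, with a median of 4.25, and against basal-type cells 10 of 12. Against suprabasal cells 4 of 7 passed as higher (Lor, Flg, Dsc1 and Asprv1) and 3 as lower (Calm4, Mt4 and Dsg1a). The level of Lor rests on 5 cells, and Lor was found in 7.45% of infundibulum-like cells against 9.87% of suprabasal cells. Asprv1, a protease that processes filaggrin, had 56.9% of its UMIs in 5 cells. Krt10, a rule gene of the suprabasal class, ran from 378 to 3554 CPM in infundibulum-like cells and from 5015 to 16498 CPM in suprabasal cells, without overlap. Mt4, a metallothionein of stratified epithelium, was lower by 5.54 on the log2 scale than in suprabasal cells (SE 0.17). Of the genes tied to adhesion, Cldn4, a tight junction claudin, was higher by 5.20 ± 0.38, 2.38 ± 0.18 and 2.19 ± 0.32 than in basal-type, upper follicle-type and suprabasal cells. Gjb2, a gap junction connexin, was at -3.16 ± 0.51 against basal-type cells and 1.85 ± 0.26 against suprabasal cells. Of 20 desmosome and tight junction genes tested against basal-type cells 15 passed as higher and 2 as lower. Against suprabasal cells 7 of 17 tested passed as higher and 7 as lower.

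Basal and bulge genes were low. All 11 basal genes listed passed as lower against upper follicle-type cells, all 6 tested did against basal-type cells, and 8 of 11 did against suprabasal cells. Krt5, the basal keratin, was at -1.45 ± 0.12 against upper follicle-type cells and at -1.66 ± 0.17 against suprabasal cells. Dst, the dystonin that anchors hemidesmosomes, was at -1.46 ± 0.19, -1.67 ± 0.15 and -1.41 ± 0.12 against basal-type, upper follicle-type and suprabasal cells. Of 10 bulge and outer root sheath genes tested, 8 passed as lower and 1 as higher against basal-type cells, and 9 as lower against upper follicle-type cells. Lgr5, a stem cell receptor of the lower follicle, was in 9 infundibulum-like cells and at -4.99 ± 0.31 against basal-type cells. The higher one was Nfatc1, a factor of bulge stem cells, at 1.997 ± 0.286. Against suprabasal cells the same list went the other way, with 6 of 8 tested passing as higher.

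Of the antimicrobial genes, Defb1, a second beta-defensin, passed as higher in all 3 comparisons. Defb1 was in 40.4% of the cells and higher by 5.21 ± 0.32, 2.17 ± 0.18 and 3.14 ± 0.23 than in basal-type, upper follicle-type and suprabasal cells. Beside Defb6, 5 of 16 antimicrobial genes were tested against basal-type cells, of which 3 passed as higher and 1 as lower. Slpi, an antiprotease with antimicrobial activity, was the lower one, at -4.34 ± 0.49, and was found in 7 infundibulum-like cells. Of 15 chemokine, alarmin and IL-1 family genes tested of 27 listed, 10 passed as higher and 2 as lower against basal-type cells. Ccl27a, the keratinocyte chemokine for skin-homing T cells, ranged from 1007 to 1988 CPM and was higher by 2.72 ± 0.27, 0.36 ± 0.10 and 1.97 ± 0.23. Cxcl14, a chemokine of resting skin, was lower, at -2.72 ± 0.15 against basal-type cells and -2.16 ± 0.16 against upper follicle-type cells, and at 0.41 ± 0.18 against suprabasal cells, not past the threshold. Areg, an EGF receptor ligand, was in 64 cells and higher by 4.36 ± 0.35, 3.34 ± 0.26 and 2.63 ± 0.35.

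Retinoid genes and Notch, Wnt and BMP response genes each went both ways against basal-type cells. Crabp2, which carries retinoic acid to the nucleus, was higher by 5.91 ± 0.39, 4.90 ± 0.17 and 3.77 ± 0.34 than in basal-type, upper follicle-type and suprabasal cells. Dhrs9, a retinol dehydrogenase, was found in 7 infundibulum-like cells and was lower than in basal-type cells, at -5.18 ± 0.36, or -6.60 without vehicle library 3. Of the retinoid list, 8 of 17 genes were tested against basal-type cells, and 5 passed as higher and 1 as lower. Against suprabasal cells 4 of 7 tested passed as higher and 0 as lower. Grhl3 and Zfp750, factors of terminal differentiation, were higher than in basal-type cells by 3.50 ± 0.30 and 2.19 ± 0.18. Against suprabasal cells they were at -0.31 ± 0.15 (not past the threshold) and -0.46 ± 0.13. Of 19 Notch, Wnt and BMP response genes tested against basal-type cells, 9 passed as higher and 7 as lower. Notch3, a receptor, was at 1.70 ± 0.18 and Jag2, a ligand, at -1.95 ± 0.20. Against suprabasal cells 2 of 18 tested genes of this list passed as higher and 6 as lower. The sebaceous gland list had 3 of 8 tested genes higher against basal-type cells, Cidea, Acsbg1 and Apoc1. Apoc1 was in 95.9% of infundibulum-like cells, and in 92.0% of basal-type, 95.5% of suprabasal and 91.6% of upper follicle-type cells. Of 20 immediate early and stress genes, 15 passed as lower and 1 as higher against suprabasal cells, with a median of -0.84, and 2 passed as lower and 3 as higher against basal-type cells. Of 9 companion layer and wound-type genes tested against basal-type cells, 1 passed as higher and 4 as lower, and Krt6a was not past the threshold at 0.54 ± 0.52. Of 10 epidermal proteases of other families tested, 6 passed as higher and 2 as lower, the most abundant being Ctsd, cathepsin D, at 1.45 ± 0.16.

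Over all genes tested, listed or not, those with the greatest differences were named by a rule of size, direction in every library and a mean of at least 50 CPM. Against basal-type cells, the 10 highest were Teddm3, Ly6g6c, 2310046K23Rik, Slc46a2, Alox12e, Klk6, Atp6v1c2, Ephb2, Rgs4 and Klk5. Ly6g6c was at a mean of 1309 ± 373 CPM (SD, n = 8) in infundibulum-like cells and 4.68 ± 5.89 CPM in basal-type cells. Teddm3 was in 118 infundibulum-like cells and in 3 basal-type, 3 upper follicle-type and 54 suprabasal cells. The 10 lowest were Tagln, Foxe1, Igfbp3, Fhod3, Dhrs9, Cntfr, Lgr5, Cmah, Col4a2 and Slc7a8. Tagln, an actin-binding protein, was at 0.724 ± 1.18 CPM against 422 ± 454 CPM. Igfbp3, which binds insulin-like growth factors, was at 3.64 ± 4.73 CPM against 352 ± 235 CPM.

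Against suprabasal cells, Gata6 was joined by Crct1, Slc46a2, Rgs4, Klk6, Car2, Akr1c18, Chil1, Foxc1 and Sema6a. Foxc1, a forkhead factor, was at 179 ± 31.8 CPM (SD, n = 6) against 5.24 ± 3.48 CPM, and it was in 70.9% of infundibulum-like cells. Rgs4, Slc46a2, Klk6 and Akr1c18 were each in 1 suprabasal cell, so their ratios are not given. The lower genes included Igfbp3, Mt4, Gadl1, Sox6, Satb1, Krt78, Sema3d, Wnt3 and Mettl7a1. Wnt3, a Wnt ligand, was at 9.65 ± 5.16 CPM against 148 ± 38.8 CPM, and Krt78, a keratin of differentiated layers, at 3.69 ± 4.74 CPM against 66.2 ± 37.4 CPM.

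Against upper follicle-type cells, Teddm3, Slc46a2, Gsdma, Ly6g6c, 2310046K23Rik, Klk6, Krt23, Sdr16c6, Gm94 and Acer1 were the 10 highest. Gsdma, a gasdermin that forms membrane pores, was at 112 ± 39.5 CPM (SD, n = 8) against 0.256 ± 0.485 CPM, with UMIs in 5 upper follicle-type cells. Krt23, a type I keratin, was at 105 ± 54.0 CPM against 1.24 ± 1.55 CPM. The 10 lowest were Wif1, Lgr5, Igfbp3, Sfrp1, Nppc, Sorl1, S100a4, Sema3e, Grem1 and Postn, which include the Wnt antagonists Wif1 and Sfrp1 and the BMP antagonist Grem1. Sfrp1 was at 42.5 ± 34.4 CPM against 376 ± 140 CPM.

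The treatment was not used to choose the cells, and the first comparison between treatments is the share of infundibulum-like cells. In PBMCsec libraries 1 to 4 they made up 4.26% (95% exact binomial interval 3.13 to 5.64), 2.08% (1.04 to 3.69), 4.74% (3.94 to 5.64) and 4.19% (3.26 to 5.29) of the cells that passed. In vehicle libraries 1 to 4 they made up 4.09% (2.19 to 6.89), 3.18% (1.70 to 5.37), 2.96% (2.38 to 3.65) and 3.44% (2.63 to 4.40). The means were 3.82 ± 1.18% and 3.42 ± 0.488% (SD, n = 4 each), a difference of 0.399 percentage points, and the groups overlapped (exact two-sided permutation test, p = 0.543, the smallest possible being 0.0286). The difference was 1.26 points in the libraries numbered 3 and 4, which held more cells, and -0.464 points in those numbered 1 and 2. The labels do not say whether these numbers go with a time of sampling. The intervals cover counting error alone.

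Of epithelial cells (no Ptprc, and at least 3 of 7 epithelial genes), infundibulum-like cells were 9.94%, 7.91%, 9.96% and 7.35% with PBMCsec and 16.9%, 7.60%, 4.50% and 5.95% with vehicle, vehicle library 1 having 77 epithelial cells in all. The difference of the means was 0.0586 points (exact permutation test, p = 1). Without vehicle library 1 it was 2.78 points, and in the libraries numbered 3 and 4 it was 3.44 points. The median UMI count per infundibulum-like cell was 11368 ± 1421 with PBMCsec and 9044 ± 1772 with vehicle (SD, n = 4 each), and the part of depth in the shares was not tested beyond thinning. With each cell thinned to 3000 UMIs the difference was 0.0068 points of passed cells and -0.663 points of epithelial cells.

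**Figure D4:**
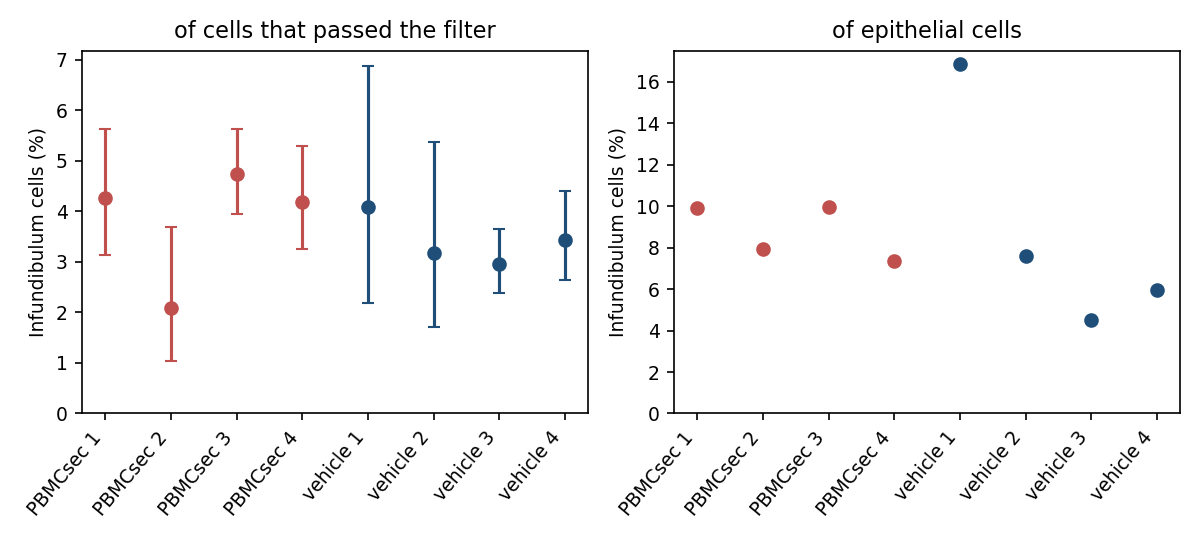
Infundibulum-like cells per library as a percent of the cells that passed (left, with 95% exact binomial intervals) and of epithelial cells (right), red for PBMCsec and blue for vehicle. The groups overlap on both scales, and vehicle library 1 is the highest on the right at 16.9%.

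No gene of the infundibulum-like cells was called between PBMCsec and vehicle in edgeR with the filter on low counts and every library included. Of 6568 genes tested on summed counts in edgeR, 0% passed an adjusted p of 0.05. Before adjustment, 87 genes (1.32%) were higher and 98 (1.49%) lower at a p under 0.05. DESeq2 called 1 gene, Rflnb, as lower. For 2.33% of the genes (153) the 4 libraries of one group did not overlap those of the other, 63 (0.959%) being higher and 90 (1.37%) lower with PBMCsec. On simulated counts for this comparison, 28% of genes changed 2-fold and 97.8% of those changed 4-fold were recovered. Most changes of 2-fold or less would thus be missed in this comparison. Every simulated gene had the same relative spread between libraries, so these shares may not hold for genes with a wider spread. In the edgeR fit of the data, Rflnb and Shisa2 differed by 4.66-fold and 5.91-fold and were not called.

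The 5 genes with the smallest p in each direction are given as values, in CPM scaled by TMM factors. The members of PBMCsec library 2 and of vehicle libraries 1 and 2 held 122104, 124061 and 153422 UMIs in all. Values under 10 CPM in these libraries, here and below, stand for very few molecules, and a lack of overlap may rest on them. None of the 10 genes passed in edgeR with the filter on low counts. With no filter on low counts all 10 passed, with adjusted p from 4.24e-08 for Ifi27l2a to 0.0233 for Slco2a1 (edgeR). Prss22, a serine protease, was at 25.9, 16.8, 12.9 and 13.9 CPM in PBMCsec libraries 1 to 4 and at 46.5, 65.6, 46.6 and 51.1 CPM in vehicle libraries 1 to 4. The groups did not overlap, and the log2 difference was -1.59 ± 0.33 (edgeR, adjusted p = 0.586). Rflnb, a refilin that bundles actin, was at 6.92, 8.41, 16.4 and 26.3 CPM against 46.5, 164, 75.2 and 42.6 CPM, again without overlap. Its log2 difference was -2.22 ± 0.46 (edgeR, adjusted p = 0.586), and with DESeq2 the adjusted p was 0.0449. Ank, a pyrophosphate transporter, was at 62.3, 16.8, 51.8 and 60.4 CPM against 186, 144, 116 and 107 CPM, with a log2 difference of -1.32 ± 0.30 (edgeR, adjusted p = 0.831). Shisa2 and Hoxc13 completed the lower 5, and in both the groups overlapped, in Shisa2 through PBMCsec library 2 at 42.1 CPM.

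Mki67, a gene of dividing cells, was at 67.4, 177, 46.6 and 99.1 CPM in PBMCsec libraries 1 to 4 and at 7.75, 6.56, 30.1 and 25.6 CPM in vehicle libraries 1 to 4. The groups did not overlap, with very few UMIs in vehicle libraries 1 and 2 (log2 difference 1.89 ± 0.44, edgeR adjusted p = 0.831). Pclaf, a partner of PCNA in replication, was at 27.7, 42.1, 19.0 and 54.2 CPM against 0, 0, 12.03 and 8.52 CPM. Cells with at least 5 UMIs of 14 cell cycle genes were few, 6 of 46, 3 of 11, 8 of 120 and 10 of 67 with PBMCsec and 0 of 13, 0 of 13, 5 of 86 and 5 of 60 with vehicle. Among members with at least 4 markers, the log2 difference of Mki67 was -0.0899. Slco2a1, a prostaglandin transporter, was at 57.1, 50.5, 60.4 and 41.8 CPM against 0, 6.56, 21.1 and 27.3 CPM, without overlap.

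Ifi27l2a, an interferon-induced gene, was at 661, 379, 141 and 121 CPM with PBMCsec and at 31.0, 45.9, 123 and 83.5 CPM with vehicle, so that PBMCsec library 4 lay below vehicle library 3. Cd74, the invariant chain of MHC class II, was at 131, 25.2, 54.4 and 49.5 CPM against 15.5, 6.56, 21.1 and 27.3 CPM. Cd74 is also a marker of Langerhans cells, and the summed level of the 9 macrophage, dendritic and Langerhans cell genes was 260, 164, 130 and 100 CPM with PBMCsec and 40.3, 6.52, 70.05 and 102 CPM with vehicle. Of the other genes of this list, the MHC class II genes H2-Ab1, H2-Aa and H2-Eb1 were in 56, 48 and 39 of the 416 cells, the Langerhans gene Cd207 in 5 and the macrophage gene Lyz2 in 10. Cells with all 4 MHC class II genes, Cd74 included, numbered 4, 0, 2 and 2 with PBMCsec and 0, 0, 1 and 1 with vehicle. The 3 genes of the list that were tested were all higher with PBMCsec, with a median log2 difference of 1.55 and 2 of them at an unadjusted p under 0.05. Cd74 was the most abundant gene of this list in 7 of the 8 libraries, and the part of such cells in its difference was not tested. Of the interferon list, 3 of 6 tested genes had an unadjusted p under 0.05, all higher, and none was called in edgeR with the filter on low counts. Ifi27l2a passed with no such filter and in the libraries numbered 1 and 2 alone (edgeR, adjusted p = 0.0159).

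**Figure D5:**
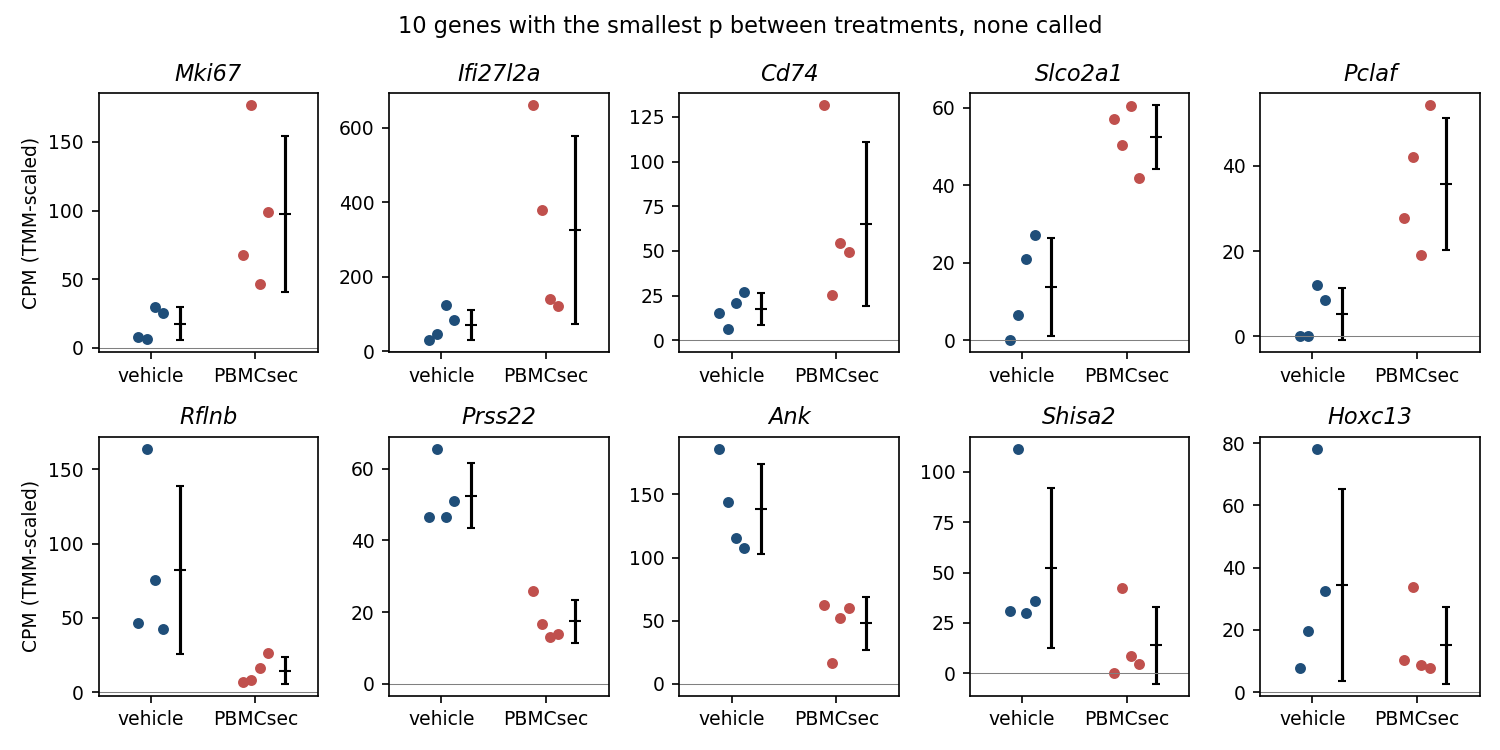
CPM scaled by TMM factors (vertical axes) of the 5 genes higher and the 5 lower with PBMCsec that had the smallest p, 1 point per library, with the mean and SD of 4 libraries at the side of each group. Prss22, Rflnb, Ank, Mki67, Pclaf and Slco2a1 do not overlap between groups. In edgeR with the filter on low counts and every library included, none of the 10 was called, while DESeq2 called Rflnb.

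The rule genes chose the cells, so their differences between treatments are given with no test. The log2 differences between PBMCsec and vehicle were 0.09 ± 0.22 for Krt79, 0.35 ± 0.29 for Defb6, 0.06 ± 0.31 for Cst6, -0.11 ± 0.40 for Klk7 and 0.55 ± 0.45 for Sprr1a, and the groups overlapped for all 5. Among the lists, with the rule genes left out, 0 of 9 tested cornified envelope genes, 0 of 14 barrier lipid genes and 0 of 17 upper follicle genes were called, with medians of -0.14, -0.03 and 0.03 beside a median of -0.0031 over all genes. At an unadjusted p under 0.05, the cornified envelope list held 1 gene higher and 1 lower, the lower being Flg at -3.85 ± 1.13. Flg was found in 13 cells with both leading markers and in 5 with Krt79 alone, so this difference rests on few cells. The upper follicle list held Aqp3 as higher, at 0.55 ± 0.25, and Fst as lower, at -1.11 ± 0.36. The barrier lipid list held 0 such genes. Lists further from 0 included the bulge and outer root sheath genes, with a median of -0.997 (4 of 5 negative, with Lhx2 and Id4 at an unadjusted p under 0.05), and the companion layer and wound-type genes, with a median of 0.83 (5 of 5 positive, with Stfa3 at an unadjusted p under 0.05). Of 5 kallikreins tested beside Klk7, 4 had a negative and 1 a positive difference, with a median of -0.77. None was called in edgeR with the filter on low counts, and 1 was lower at an unadjusted p under 0.05. Klk8 and Klk5 were at -0.74 and -0.77.

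Markers of other cells differed between libraries. The summed 7 fibroblast genes were at 64.6, 98.3, 771.5 and 1527 CPM in PBMCsec libraries 1 to 4 and at 32.2, 58.7, 1080 and 58.3 CPM in vehicle libraries 1 to 4. Dcn, a defining fibroblast gene, was in 64 of the 416 cells, but 5 cells held 82.1% of its UMIs. T cell genes summed to at most 155 CPM. Their most abundant gene was Trbc2 in the 7 libraries with any, at 102 CPM of the 155 in vehicle library 3, and Trbc1 was in 27 cells, with Cd3d and Cd3e in 1 cell each. Endothelial genes summed to at most 8.19 CPM, with Cdh5 in no cell, and melanocyte genes to at most 40.3 CPM, with Tyrp1 and Dct in no cell. Removing the members with at least 2 markers of fibroblasts or endothelium, 0 to 8 per library, left 0 genes called between treatments. No doublet caller was run.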

How the data were processed

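Single-cell suspensions of dorsal skin were sequenced with a 10x Genomics 3′ kit, 4 PBMCsec and 4 vehicle libraries. Per the submitters' processing notes, reads were processed with Cell Ranger 3.0.2 on mm10. The authors deposited filtered matrices of raw UMI counts for 31053 genes, which were used as deposited. The study limited mitochondrial UMIs to 5%, and 10% was used here with 5% as an alternative.

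The members and the gene lists were chosen with earlier results of these data known. Counts were summed per library and class (at least 10 cells) and fitted with edgeR 4.0.16 in R 4.3.3 (quasi-likelihood test after TMM scaling and the filterByExpr filter, with Benjamini-Hochberg adjustment over all genes tested and a threshold of 0.05), with the library as a block between classes. The standard error is the log2 difference divided by the root of F. Gm42418, Gm17056 and Gm26917 were left out. Shares were compared over the 70 labellings in an exact two-sided permutation test (scipy 1.17.1), with exact Clopper-Pearson 95% intervals. Cells were thinned to 3000 UMIs with a fixed seed.

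Named genes were the 10 highest and 10 lowest called log2 differences that had the same sign in every library and a mean of at least 50 CPM, the 5 smallest p in each direction between treatments, and from each list the most abundant and the most changed called genes. A gene that this rule names in the comparison with suprabasal cells is not reported here. Other list genes named were chosen after their values were seen. Of 346 list genes 343 were found. The fits were tested on simulated counts in which every gene had the same relative spread between libraries. For the comparisons with basal-type, suprabasal and upper follicle-type cells 83%, 81.1% and 90.7% of genes changed 2-fold were recovered. Alternatives were DESeq2 1.42.0, no filter on low counts, other cell minimums, stricter members, a replicate block and leaving out libraries.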

Additional observations from a re-analysis of the deposited data

Results flagged for a closer look

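Of 34 groups of 4 library values checked, 4 held a library whose gap to its nearest neighbour passed the 95% critical value of Dixon's test, which chance passes in about 1 in 20 groups. Values are CPM scaled by TMM factors in infundibulum-like cells. Sprr1a was at 4573 CPM in PBMCsec library 1, which also had the highest Crct1. Defb6 was at 9643 CPM in vehicle library 1, which held 13 infundibulum-like cells. Hoxc13 was at 33.66 CPM in PBMCsec library 2 and Shisa2 at 111.4 CPM in vehicle library 2, libraries with 11 and 13 infundibulum-like cells.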

How the results depend on the processing

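The number of genes called between PBMCsec and vehicle was 0 in edgeR with each library left out in turn (0 to 0), with at least 4 markers and with members of another cell type's markers left out. It was 1 with DESeq2, 79 with no filter on low counts (49 higher and 30 lower), 2 with a mitochondrial limit of 5% and 1 with a minimum of 20 cells. It was 14 (1 higher and 13 lower) in the libraries numbered 3 and 4 alone and 6 in those numbered 1 and 2 alone, fits with 2 libraries a group. The cause was not tested. The difference in the share of passed cells was -0.464 points in libraries 1 and 2 alone and ran from 0.0919 to 0.977 with 1 library left out. That of epithelial cells was -0.527 with the 5% limit, -0.0532 with at least 4 markers, -0.274 with other-type members left out, -0.663 after thinning and -3.32 in libraries 1 and 2 alone, and ran from -1.35 to 2.78 with 1 library left out. The log2 difference of Mki67 was -0.0899 with at least 4 markers. That of Klk7 was 0.11 with at least 4 markers, 0.082 in members with both Krt79 and Defb6 (an alternative chosen after seeing the data) and 0.51 in libraries 1 and 2 alone. In the same libraries Krt79 was at -0.18 and Cst6 at -0.027, and Sprr1a was at -0.40 in libraries 3 and 4 alone. With 1 library left out, Krt79 ran from -0.020 to 0.21, Cst6 from -0.26 to 0.33, Klk7 from -0.66 to 0.28 and Sprr1a from -0.14 to 0.87.

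Total counts against the other classes stayed within 1.5 times under the alternatives run. Taken by direction, the lower count against suprabasal cells went from 1215 to 764 with the 5% limit, where 5807 genes were tested in place of 7971. With 1 library left out they ran from 2645 to 3247 against basal-type, 1752 to 2386 against suprabasal and 2359 to 3018 against upper follicle-type cells. In members with both Krt79 and Defb6, 1462 genes were higher and 1589 lower against basal-type, 1095 and 1215 against suprabasal, and 1403 and 1512 against upper follicle-type cells. The 20 genes named by rule in each of these kept their direction and call.

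Libraries of the 2 groups share numbers in the labels, and no label says that a number marks a shared animal or day. Same-numbered libraries deviated together with correlations of 0.229, 0.0344, 0.158 and 0.392 over 2000 genes, against -0.340 to 0.0948 for the 12 pairs of different numbers. Since the libraries numbered 2 did not correlate best with each other, the numbers were not used as pairs, although the other 3 pairs hint at it. With a replicate block 0 genes were called (149 higher and 146 lower at an unadjusted p under 0.05), and the shares differed by 0.399 (exact p = 0.625) and 0.0586 points (exact p = 1). With so few pairs, the exact test of the shares could not reach a p under 0.05 whatever the values.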
